A study of Mus musculus with 8 samples.

Results

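The genes described here encode proteins of the red cell membrane and surface, together with a carbonic anhydrase of the red cell interior. They were chosen by name from earlier work on these arrays and are Ermap, Add2, Rhag, Rhd, Icam4, Aqp1, Tspan33, Epor, Tfrc and Car2. All 10 were measured, among 10720 measured genes in all. Of the 22 probe sets annotated to one of these genes alone, 19 carried values, and 3 (2 of Add2 and 1 of Tspan33) were listed at 0 on all arrays. The mean log2 signal of all 10 genes was higher in the Msi2 knockout (as for 50.4% of all genes), by a median of 0.88, but no probe set passed the threshold of the test over the whole table. On all 10 the highest of the 8 readings came from a single knockout array, Msi2 KO 3.

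The samples were LSK cells from mouse bone marrow, a fraction without lineage markers that carries Sca-1 and Kit and holds blood stem cells and early progenitors. 4 arrays came from control mice labelled WT and 4 from mice with a conditional deletion of Msi2, the gene of the RNA-binding protein Musashi-2. The Cre driver, the strain and the age of the mice are not given in the sources used here. Msi2 signal, averaged over 4 bright probe sets, was 73.2% of the control level on Msi2 KO 1 and 63.7% on the second KO array, but 15.2% on Msi2 KO 3 and 40.4% on the fourth, so it was uneven between the arrays. Control readings ranged from 90.7% to 111%.

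Arrays also differed in ways the labels do not give. The leading principal component held 28.6% of the variance and placed Msi2 KO 3 at 69.4, control 1 at -39.4 and the rest from there up to 17.0. Msi2 KO 3 also had the lowest array weight (0.538, others 0.627 to 1.97) and the largest gap between the actin 3' and 5' sets (0.287, the rest -0.118 to 0.133). The same gap for Gapdh, 1.70 on Msi2 KO 3, lay within the range of the other arrays (1.35 to 1.85). The female-specific RNA Xist was low on 3 arrays (control 1 and Msi2 KO 1 and 2) and high on the other 5, so both sexes were present in both groups. The part of these differences in the results was not tested, and differences and list medians that moved by more than 1.5 times without Msi2 KO 3 are also given without it. The labels do not say whether each array stands for a separate mouse, so p-values measure only the spread between these arrays.

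As background, the red cell membrane is a lipid bilayer held on a spectrin skeleton. Adducin caps the actin filaments of that skeleton, and the Rh complex joins the membrane to it and carries blood group antigens. Red cell precursors acquire these proteins as they mature: receptors for erythropoietin and transferrin act early and are lost later, whereas skeletal and Rh proteins accumulate towards the reticulocyte. The erythroid factors GATA1 and KLF1 are known to switch on many of these genes. The lineage gate of an LSK sort is meant to remove maturing erythroid cells.

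Add2 encodes beta-adducin, the adducin subunit of red cells and brain. On its brightest probe set, 1421975_a_at, Add2 read 7.06, 7.24, 7.22 and 6.74 on controls 1 to 4, and 6.77, 7.27, 8.81 and 7.26 on Msi2 KO 1 to 4. Msi2 KO 2 and 4 lay just above the highest control, Msi2 KO 1 lay within the control range, and only Msi2 KO 3 stood well clear. The difference of 0.46 ± 0.38 (SE, log2, n = 4 each) was 0.036 without that array. A dimmer probe set, 1451914_a_at, gave a larger difference of means, with controls at 5.55, 6.49, 5.43 and 4.55 and KO arrays at 6.40, 6.38, 7.88 and 6.53. The groups overlapped on this probe set too, since Msi2 KO 1 and 2 lay below control 2. Its difference was 1.29 ± 0.45 (SE), or 2.45-fold, and 0.93 without Msi2 KO 3. The probe sets of Add2 therefore disagreed in size, and the third, 1431076_at, was near background (a group mean below 5) at 4.15 in controls and 4.28 in KO.

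Rhag and Rhd encode the ammonium-channel subunit and the antigen-bearing subunit of the Rh complex. Rhag was near background in both groups. It read 3.07, 3.82, 3.64 and 3.91 in controls and 3.54, 4.15, 6.68 and 5.09 on Msi2 KO 1 to 4, so 2 KO arrays lay above 5 and none of the controls did. The log2 difference of 1.26 ± 0.58 (SE) is given with no fold for this reason, and it was 0.65 without Msi2 KO 3. Rhd was above background throughout, at 6.46, 7.09, 6.63 and 6.66 in controls and 6.41, 7.23, 9.47 and 7.59 in KO. Msi2 KO 1 lay below every control for Rhd, while the other 3 KO arrays lay above every control. The Rhd difference was 0.97 ± 0.54 (SE) and 0.37 without Msi2 KO 3.

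Icam4 encodes the Landsteiner-Wiener blood group protein, an adhesion molecule that binds integrins and sits near the Rh proteins. It read 5.77, 6.55, 7.32 and 6.68 in controls and 7.05, 6.76, 7.99 and 7.68 in KO. Msi2 KO 3 and Msi2 KO 4 exceeded every control, and Msi2 KO 1 and 2 lay within the control range. The Icam4 difference was 0.79 ± 0.36 (SE), or 1.73-fold, and 0.58 without Msi2 KO 3. Ermap encodes an erythroid membrane protein of the immunoglobulin superfamily that carries the Scianna blood group in humans. Its controls spread widely, at 8.29, 10.30, 9.75 and 8.23, and its KO arrays read 9.59, 10.20, 11.89 and 10.59. Msi2 KO 1 and 2 lay inside the range of the controls and Msi2 KO 3 and 4 above it. The Ermap difference of 1.42 ± 0.59 (SE) corresponds to 2.68-fold, and to 0.98 on the log2 scale without Msi2 KO 3.

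**Figure D1:**
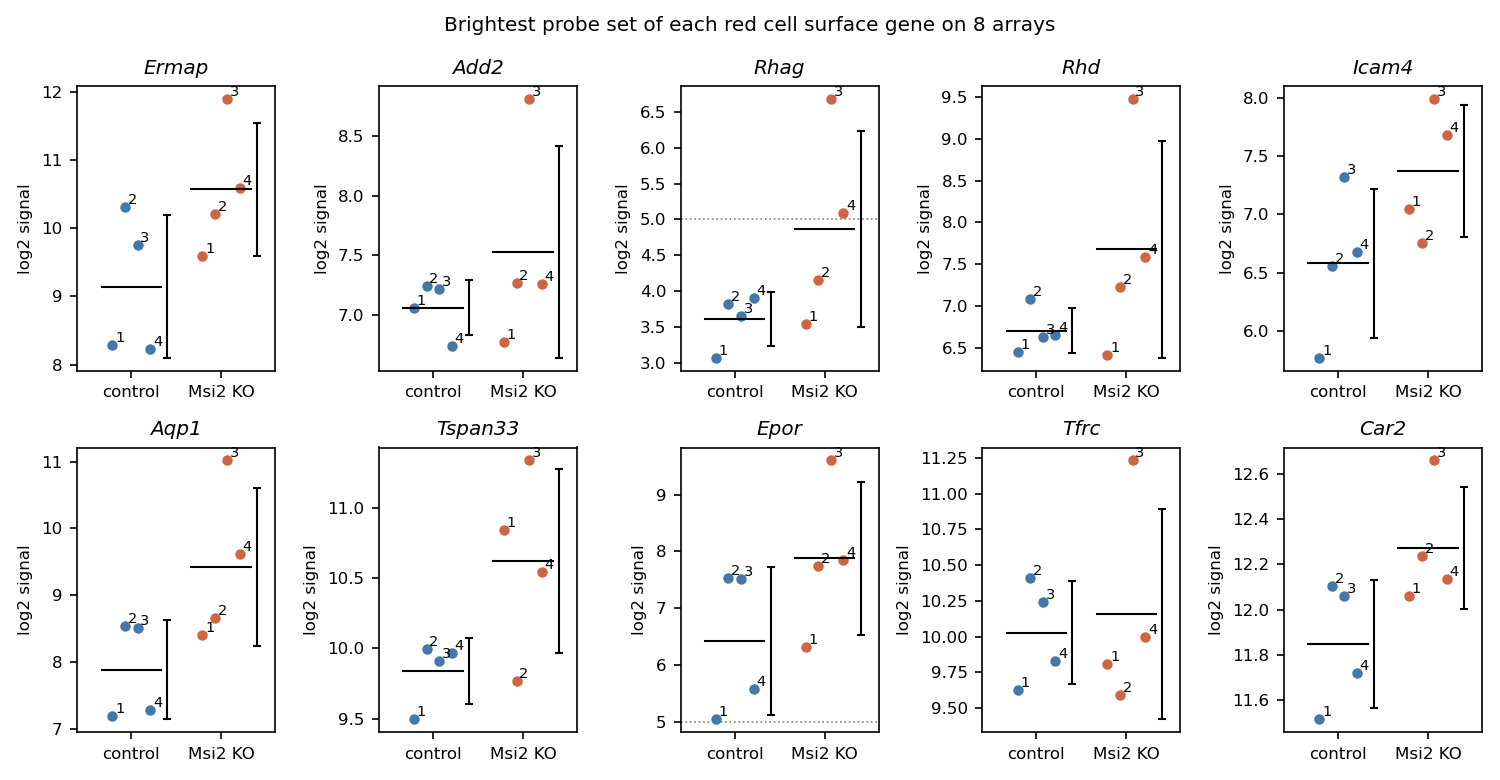
Log2 signal of the brightest probe set of each of the 10 genes (y axis, a separate scale per gene) in the control and Msi2 KO groups (x axis). Points are arrays with their replicate number, horizontal bars are group means, vertical bars are 1 SD on either side of the mean (n = 4), and the dotted line marks the near-background level of 5. Msi2 KO 3 is the highest point in all 10 panels, and the groups overlap in every one.

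Aqp1, the water channel of red cells, had the largest difference of the 10 genes. It read 7.20, 8.54, 8.51 and 7.28 in controls and 8.40, 8.67, 11.02 and 9.61 in KO. All but Msi2 KO 1 lay above every control. The Aqp1 difference was 1.54 ± 0.57 (SE), or 2.91-fold, with a 95% confidence interval of 0.25 to 2.83 on the log2 scale, and 1.01 without Msi2 KO 3. Car2 encodes carbonic anhydrase 2, which interconverts carbon dioxide and bicarbonate inside the red cell. It was bright in both groups and differed little, at 11.52, 12.11, 12.06 and 11.72 in controls and 12.06, 12.24, 12.66 and 12.13 in KO. Msi2 KO 1 lay below control 2, so the groups overlapped, and the difference was 0.42 ± 0.19 (SE), or 1.34-fold, and 0.29 on the log2 scale without Msi2 KO 3.

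Tspan33 encodes a tetraspanin of the group that guides the protease ADAM10, and in mice it is needed for normal red cell formation. Its brightest probe set, 1451608_a_at, read 9.50, 9.996, 9.91 and 9.97 in controls and 10.84, 9.77, 11.33 and 10.54 in KO. Here Msi2 KO 2 was the array inside the control range, and Msi2 KO 1, 3 and 4 lay above it. The other Tspan33 probe sets gave differences close to the 0.78 ± 0.30 (SE) of the brightest, at 0.89 (1455618_x_at) and 0.64 (1425157_x_at). Without Msi2 KO 3 the brightest gave 0.54, 1455618_x_at gave 0.52 and 1425157_x_at gave 0.36. On 1425157_x_at all 4 KO arrays (5.74, 5.62, 6.83 and 5.80) exceeded all 4 controls (5.54, 5.39, 5.45 and 5.04). It was the only one of the 19 probe sets without overlap, against 3.12% of all probe sets that were higher on every KO array. Probe sets ending in _x_at can bind related transcripts, so this reading is less specific.

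Epor encodes the erythropoietin receptor, which keeps erythroid progenitors alive through JAK2 and STAT5. It varied more among controls than any other of the 10 genes, at 5.05, 7.54, 7.52 and 5.58, and its KO arrays read 6.32, 7.74, 9.60 and 7.85. Msi2 KO 1 lay below controls 2 and 3, and the other KO arrays lay above them. The Epor difference of 1.46 ± 0.76 (SE) had a 95% confidence interval of -0.26 to 3.17, and it was 0.88 without Msi2 KO 3. Tfrc encodes transferrin receptor 1, through which cells take up iron, and is expressed by dividing cells of many kinds. Its brightest probe set, 1452661_at, read 9.63, 10.41, 10.24 and 9.83 in controls and 9.81, 9.59, 11.23 and 9.995 in KO. For Tfrc, Msi2 KO 1, 2 and 4 lay in the lower part of the control range or, for Msi2 KO 2, just below it, and the difference was 0.13 ± 0.35 (SE).

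The 6 Tfrc probe sets include the array maker's own 3', middle and 5' sets of this transcript, which gave differences of 0.22, 0.46 and 0.44. The remaining 2 sets, 1422967_a_at and 1422966_a_at, gave 0.40 and 0.29. Without Msi2 KO 3 the differences ran from -0.23 to 0.20, and 3 of the 6 turned negative (1452661_at, 1422966_a_at and the 3' set). The 3' minus 5' difference of Tfrc, which compares the ends of the same transcript, was -1.26, -1.22, -1.21 and -0.64 in controls and -1.99, -0.89, -0.96 and -1.39 in KO, so the groups overlapped and Msi2 KO 3 lay within the range of the others.

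Set against the whole table, the tests were as follows. limma passed 0 of the 19 probe sets at an adjusted p under 0.05 (lowest adjusted p 0.437, for Add2 1451914_a_at), and 0% of all 24413 probe sets passed. At an unadjusted p under 0.05, 6 of the 19 were higher in KO, namely those of Ermap and Aqp1, all 3 of Tspan33 and 1 of Add2, where 4.87% of all probe sets were. In the fit on genes, limma gave 0 of 10 at an adjusted p under 0.05 (0.388 to 0.924, against 0% of all genes). At an unadjusted p under 0.05 it gave 3 of 10 (Ermap, Aqp1 and Tspan33), against 5.74% of all genes in that direction. KO did not lie wholly above control on the brightest probe set of any of the 10 genes, whereas all 4 KO arrays lay above all controls for 3.63% of all genes and below them for 3.48%. Without Msi2 KO 1, it did for 6 of the 10, against 7.17% of all genes, and for 0 or 1 of the 10 without any other single array. Of the 19 probe sets 19 had a higher mean in KO (50.1% of all probe sets), with a median difference of 0.64 beside 0.00058 over the table. Without Msi2 KO 3 these medians were 0.36 and -0.0027. The 10 genes were chosen with such results known and vary together, so these counts describe them and are no test.

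**Figure D2:**
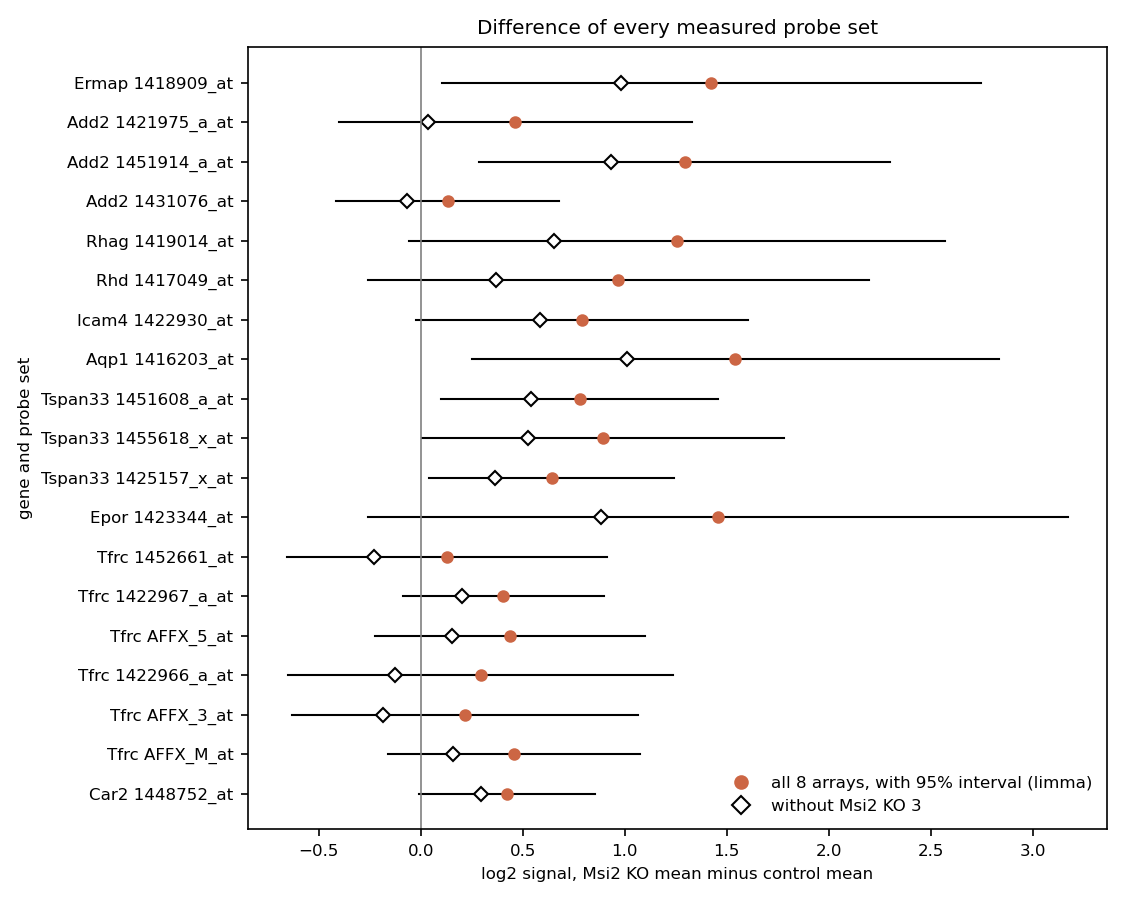
Difference in log2 signal between the Msi2 KO and control means (x axis) for each of the 19 measured probe sets (y axis). Filled circles use all 8 arrays with the 95% confidence interval of limma, and open diamonds leave out Msi2 KO 3. All 19 circles lie above 0, and 4 diamonds (3 of Tfrc and Add2 1431076_at) lie below it.

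The differences came mainly from 2 of the 4 knockout arrays. Msi2 KO 3 was above every control for 10 of 10 genes (31.7% of all genes) and Msi2 KO 4 for 9 of 10 (21.8%), the exception being Tfrc. Msi2 KO 2 was above every control for 6 of 10 (25.6%) and Msi2 KO 1 for 1 of 10, Tspan33 (22.2%). The highest of the 8 readings fell on Msi2 KO 3 for all 10 genes, as it did for 23.1% of all genes. Leaving that array out, 9 of 10 genes still had a higher mean in KO (49.7% of all genes), Tfrc being the exception, and the median difference was 0.56 beside -0.0016 over all genes. No adjusted p of the 19 probe sets was then below 0.556. More cells that express a gene and more RNA of it per cell cannot be told apart in such bulk samples.

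On average over the 10 genes, the shift from control was 0.17, 0.45, 2.16 and 0.92 for KO arrays 1 to 4. This is the reverse of the order of the Msi2 signal on the same arrays, which was 73.2%, 63.7%, 15.2% and 40.4% of control. 4 arrays are too few for a test of that relation. The array with the least Msi2 also stood apart in overall expression and actin 3' to 5' difference, though not in the same difference of Gapdh or Tfrc. The part of the Msi2 level or of these array traits in the result was not tested. The controls varied as well, with averages of -0.56, 0.45, 0.37 and -0.25 on controls 1 to 4. Control 2 thus lay close to Msi2 KO 2 and control 3 between Msi2 KO 1 and 2, and the lowest control reading fell on control 1 or control 4 for all 10 genes.

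Of the erythroid transcription factors measured, some had the KO arrays in the same order as the surface genes and others did not. Klf1, the erythroid Krüppel-like factor, stood -0.35, 0.90, 0.26 and -0.82 from its control mean on controls 1 to 4 and 0.76, 1.37, 2.78 and 1.55 on Msi2 KO 1 to 4. Gata1, the main erythroid GATA factor, stood at -0.49, 0.62, 0.049 and -0.18 in controls and 0.53, 1.23, 2.37 and 1.38 in KO. Both were highest on Msi2 KO 3 and next on Msi2 KO 4, as was the average of the surface genes, and so were Gfi1b and Tal1. Zfpm1, a partner of GATA1, stood at 0.71, 1.30, 1.00 and 1.20 on Msi2 KO 1 to 4 and was highest on Msi2 KO 2, and Ldb1, Lmo2 and Nfe2 did not follow the order either. The differences of Klf1 (1.61 ± 0.47, SE) and Gata1 (1.37 ± 0.37, SE) did not pass limma either (adjusted p 0.298 and 0.287).

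**Figure D3:**
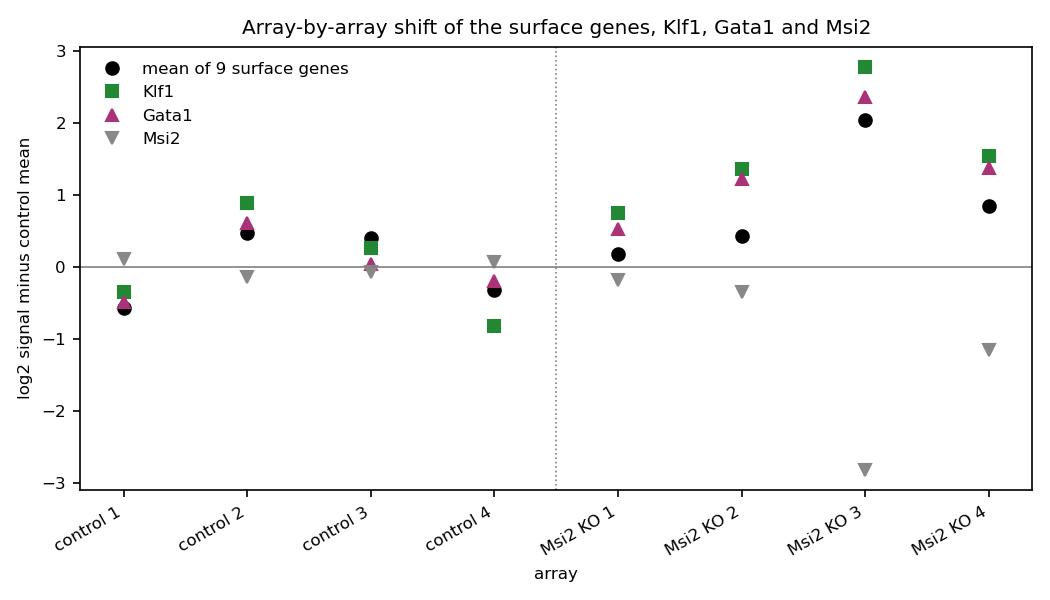
Log2 signal relative to the control mean (y axis) on each of the 8 arrays (x axis) for Klf1, Gata1, Msi2 and the mean of the 9 surface genes that were not near background (all but Rhag). On Msi2 KO 3 the mean of the 9 genes is at 2.05, Klf1 at 2.78 and Msi2 at -2.81, and on Msi2 KO 1 the same values are 0.19, 0.76 and -0.17. Msi2 is shown by its brightest probe set alone, not by the average over 4 probe sets used in the text, and is at -0.14 on control 2.

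Since these genes read together across the arrays and erythroid factors are known to act on many such genes, their start regions were searched for the letters of a GATA site (AGATAA or TGATAA) and of a KLF site (CCNCNCCC), on both strands. Windows of 300 bases, from 250 before to 50 after a RefSeq start (build GRCm38.p6), were at hand for 9 of the 10 genes. A GATA match was present in 5 of the 9 (18.6% of all windows) and a KLF match in 7 of the 9 (49.5% of all windows). The counts are of genes, which have 10 windows between them, whereas the shares are of windows. The 5 genes with a GATA match are shown because all 5 matches fell within 70 bases before the start, with 70 bases before and 50 after it, matches in capitals and all sequences 5' to 3' on the gene's strand.
Ermap (chr4:119189946-119190065, minus strand): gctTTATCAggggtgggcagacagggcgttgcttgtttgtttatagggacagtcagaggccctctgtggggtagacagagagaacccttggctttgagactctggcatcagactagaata
Rhd (chr4:134864466-134864585, plus strand): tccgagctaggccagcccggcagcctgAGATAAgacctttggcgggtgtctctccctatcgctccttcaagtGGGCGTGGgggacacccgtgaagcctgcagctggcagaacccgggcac
Icam4 (chr9:21029362-21029481, plus strand): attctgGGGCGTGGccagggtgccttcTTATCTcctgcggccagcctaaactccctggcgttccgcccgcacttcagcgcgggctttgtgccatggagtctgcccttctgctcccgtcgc
Epor (chr9:21963527-21963646, minus strand): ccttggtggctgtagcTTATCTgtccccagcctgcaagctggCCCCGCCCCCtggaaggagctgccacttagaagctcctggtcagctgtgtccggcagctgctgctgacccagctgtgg
Rhag (chr17:40811079-40811198, plus strand): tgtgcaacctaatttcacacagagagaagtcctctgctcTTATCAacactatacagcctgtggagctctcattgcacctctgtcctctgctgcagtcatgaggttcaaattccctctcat
Rhd carries AGATAA as read here, and the other 4 carry a match on the opposite strand (TTATCT in Icam4 and Epor, TTATCA in Ermap and Rhag). The first base of the GATA match lies 67, 43, 43, 54 and 31 bases before the start of Ermap, Rhd, Icam4, Epor and Rhag, respectively. Rhd, Icam4 and Epor also hold KLF letters in the stretch shown, where a pair of overlapping matches in Epor reads as 1 run, and no GATA match overlaps a KLF match. Both kinds of match occurred in 5.73% of all windows. Genes without GATA letters in the window (Aqp1, Tspan33, Add2 and Tfrc) included Aqp1, which had the largest difference. A match describes letters only, and no binding was measured.

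Of 10 measured genes of the membrane skeleton outside the 10 described, 7 had a higher and 3 a lower mean in KO, with a median of 0.15 (0.081 without Msi2 KO 3), and limma passed 0. Ank1, the ankyrin that ties band 3 to spectrin, read 6.49, 7.44, 7.27 and 6.25 in controls and 6.92, 7.64, 9.38 and 8.09 in KO (1.14 ± 0.49, SE, and 0.69 without Msi2 KO 3). Tpm1, a tropomyosin, was on the other side at -0.60 ± 0.18 (SE), with all 4 KO arrays below the controls (3.48% of all genes were). The other adducins gave 0.20 (Add1) and -0.23 (Add3). Sptb and Dmtn were listed at 0.

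Of 18 other surface genes measured, 13 had a higher and 5 a lower mean in KO, with a median of 0.20, and limma passed 0. At an unadjusted p under 0.05, 4 were higher and 0 lower, against 5.74% and 5.66% of all genes. The blood group protein gene Kel read 4.77, 5.74, 4.78 and 4.62 in controls and 5.55, 5.82, 8.03 and 6.30 in KO, and its controls were near background. The Kel difference was 1.45 ± 0.51 (SE) and 0.91 without Msi2 KO 3. Slc14a1, the urea transporter that carries the Kidd antigen in humans, read 7.14, 8.52, 8.63 and 8.30 in controls and 8.91, 8.77, 9.63 and 9.41 in KO, so the groups did not overlap (1.03 ± 0.34, SE). All KO arrays lay above all controls for 3.63% of all genes. Slc4a1, the anion exchanger band 3 of mature red cells, stayed near background in both groups, at 3.84 and 4.03.

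Downstream of the erythropoietin receptor, 5 of 13 measured genes had a higher and 8 a lower mean in KO (median -0.11), and limma passed 0. Stat5a, a transcription factor activated by the receptor, was 0.33 ± 0.13 (SE) higher, with all KO arrays above all controls, as for 3.63% of all genes. Bcl2l1, a survival gene of the same pathway, was at -0.69 ± 0.26 (SE), with Msi2 KO 1 inside the control range. The kinase gene Pim1, a STAT5 target, was below every control on all KO arrays, as 3.48% of all genes were, at -0.47 and at -0.29 without Msi2 KO 3. Of 14 transferrin and iron uptake genes, 9 had a higher and 5 a lower mean (median 0.21), and limma passed 0. Without Msi2 KO 3, 7 of the 14 were higher and the median was 0.059. Tfr2, the second transferrin receptor, read 7.66, 8.30, 8.42 and 7.99 in controls and 8.89, 8.44, 9.31 and 8.44 in KO (0.68 ± 0.24, SE). Tfr2 readings were therefore above every control on each KO array, as for 3.63% of all genes, where Tfrc overlapped. Msi2 KO 2 and 4 lay only just above control 3. Pcbp1, an iron chaperone, gave 0.42 ± 0.15 (SE), also without overlap.

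Among relatives of the 10 genes, 13 were measured and 9 were listed at 0, including the Rh relatives Rhbg and Rhcg. Of the 13, 8 had a higher and 5 a lower mean in KO, with a median of 0.03 (0.082 without Msi2 KO 3), and limma passed 0. The carbonic anhydrase gene Car1, which is abundant in red cells, read 9.02, 11.00, 10.55 and 9.52 in controls and 10.44, 11.21, 12.38 and 11.53 in KO, a difference of 1.37 ± 0.50 (SE) beside 0.42 for Car2. Of the tetraspanins of the same group as Tspan33, Tspan14 lay on the other side at -0.60 ± 0.18 and Tspan5 at -0.54 ± 0.19 (SE), while their shared partner Adam10 differed by -0.048 (-0.076 without Msi2 KO 3). Tspan17, of the same group, was near background at 4.25 in controls and 4.36 in KO, a difference of 0.12 (0.19 without Msi2 KO 3). All 4 KO arrays lay below the controls for Tspan14 (7.60, 8.14, 7.80 and 8.25 against 8.83, 8.48, 8.46 and 8.40), as for 3.48% of all genes, and Tspan5 overlapped.

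**Figure D4:**
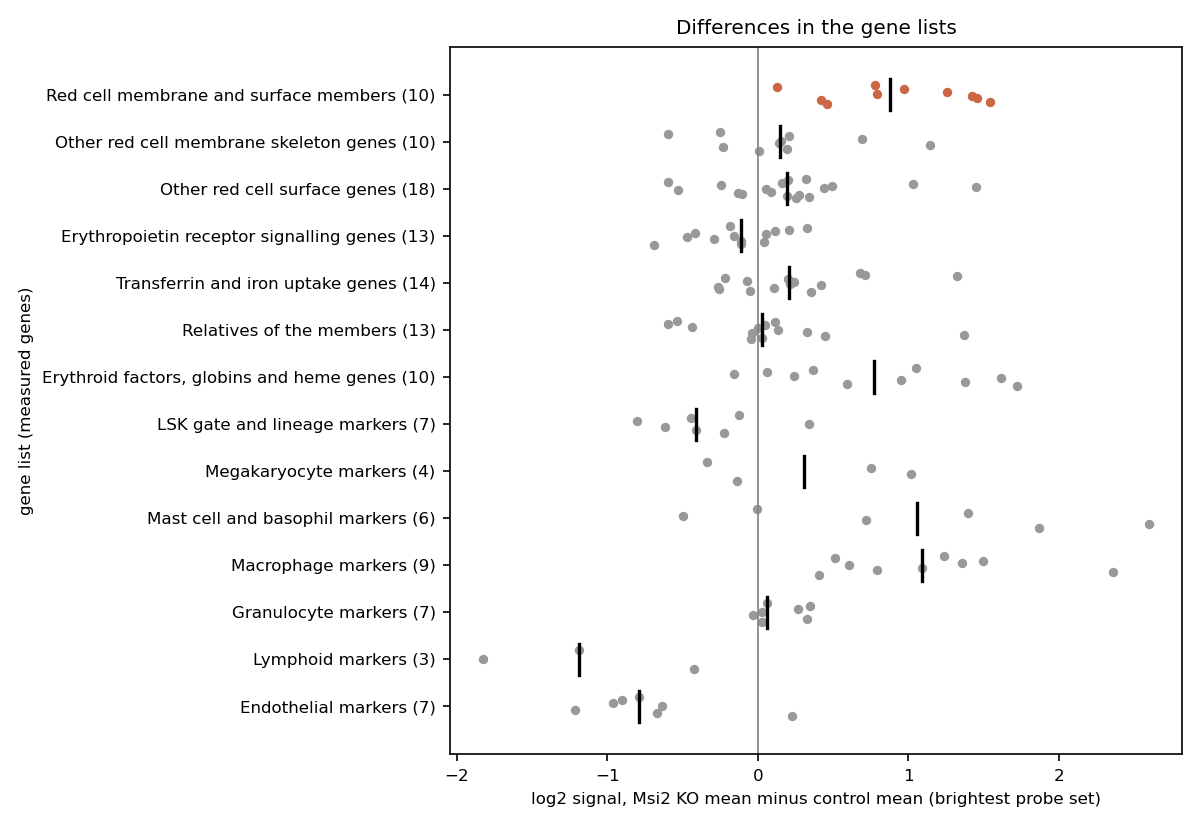
Difference in log2 signal between the Msi2 KO and control means (x axis) of each measured gene in the lists used (y axis, number of genes in brackets). Points are genes and black bars list medians, with the 10 surface genes in colour. Their median of 0.88 stands beside 0.15 for other skeleton genes, 0.20 for other surface genes and 0.77 for the list of erythroid factors, globins and heme genes. No globin gene of that list had values.

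Markers of other cells were read on the same arrays. The erythroid list had 9 of 10 measured genes higher in KO (median 0.77, and 0.49 without Msi2 KO 3), with Zfpm1 at 1.05 ± 0.19 and Blvrb, a heme-breakdown enzyme, at 1.72 ± 0.32 (SE). Hba-a1 and Alas2, which mark later red cell precursors, and the embryonic globin gene Hba-x were listed at 0. Of 7 measured gate and lineage markers, 1 was higher in KO and 6 were lower, by a median of -0.41 (-0.12 without Msi2 KO 3, where 2 of 7 were higher). Kit was the higher one, at 8.70 in controls and 9.04 in KO. Ptprc, the leukocyte antigen CD45, was below every control on all KO arrays (3.48% of all genes were) at -0.44 ± 0.17 (SE), and Cd48 was at -0.41 ± 0.18 (SE). Procr, Flt3, Cd34 and Slamf1, markers of stem and progenitor cells, gave -0.80, -0.62, -0.22 and -0.13, and without Msi2 KO 3 -0.20, -0.12, -0.023 and 0.25. Ly6a (Sca-1) was not analysed here, and Cd3e, Cd4, Cd8a and Itgam of mature lineages were listed at 0.

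Macrophage markers were higher for 9 of 9 measured genes, with a summed log2 signal of 8.53 to 10.4 in controls and 10.02 to 11.47 in KO and with C1qa and C1qc at 0. Cd68 differed by 1.09 ± 0.26 (SE) and Adgre1, near background, by 0.41 ± 0.18 (SE). The lowest KO sum, 10.02, was on Msi2 KO 3, the array with the highest surface genes. Mast cell and basophil markers were higher for 4 of 6 (7.64 to 9.17 in controls, 8.63 to 9.95 in KO, Gzmb at 0). Fcer1a, a chain of the IgE receptor, read 3.59, 5.05, 4.30 and 4.16 in controls and 6.46, 6.57, 6.62 and 7.83 in KO, a difference of 2.60 ± 0.37 (SE) from controls near background. The protease gene Cpa3 differed by 1.87 ± 0.42 (SE), and KO lay above every control for both genes, as for 3.63% of all genes. The lower 2 of the 6 were Mcpt8 at -0.50 (-0.77 without Msi2 KO 3) and Tpsb2 at -0.0031 (0.056 without it). Megakaryocyte markers were higher for 2 of 4 (9.14 to 10.9 and 10.7 to 11.9, with Gp1bb, Gp9 and Gp6 at 0), namely Ppbp by 0.75 ± 0.29 and Pf4 by 1.02 ± 0.56 (SE). Ppbp was near background in controls, at 4.77. The lower 2 were Itga2b at -0.14 (-0.025 without Msi2 KO 3) and Vwf at -0.34 (-0.46 without it). The median of the 4 was 0.31, and 0.48 without Msi2 KO 3.

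Granulocyte markers were higher for 6 of 7, by a median of 0.061 and without Msi2 KO 3 of 0.14 (13.2 to 14.1 in controls and 13.6 to 14.2 in KO, with Ltf and Camp at 0). Prtn3 was at 0.27 ± 0.25 and S100a8 at 0.35 ± 0.34 (SE). Lymphoid markers were lower for 3 of 3 and lowest on Msi2 KO 3 (10.9 to 11.6 in controls and 8.63 to 10.5 in KO), with Cd79a, Igll1, Il7r, Cd3g and Rag1 at 0. Dntt, the terminal transferase of early lymphoid cells, was at -1.82 ± 0.50 (SE) and Vpreb1 at -1.19 ± 0.47 (SE). Endothelial markers, several of which blood stem cells share, were lower for 6 of 7 (9.65 to 9.91 and 8.27 to 9.31, Kdr at 0), again lowest on Msi2 KO 3. Robo4 was at -0.96 ± 0.27 (SE) and Tek at -0.90 ± 0.29 (SE). The limma gene fit passed 0 genes of these lists, and the part of these cell types in the result was not tested.

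Within each Xist class most of the 10 genes were higher in KO, but the share of all genes higher within a class was not counted. The high class holds Msi2 KO 3 and 4, the KO arrays with the largest shifts. The part of sex in the result was not tested. Among the 5 arrays with high Xist (controls 2 to 4, Msi2 KO 3 and 4), 10 of 10 genes had a higher mean in KO, and for 9 of 10 both KO arrays lay above the 3 controls (17.6% of all genes). Aqp1 differed there by 2.21 and Epor by 1.84, and Tfrc by 0.45. With Msi2 KO 4 alone against these controls, Aqp1 gave 1.504, Epor 0.97 and Tfrc -0.17, the 1 gene of the 10 that turned. Among the 3 arrays with low Xist (control 1, Msi2 KO 1 and 2), 9 of 10 were higher, with Aqp1 at 1.33 and Epor at 1.99, and Add2 at -0.041 as the exception. That comparison rests on control 1 alone, which was the lowest of all arrays for 6 of the 10 genes, and has no test.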

How the data were processed

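Total RNA of LSK cells was labelled with biotin and hybridised to Affymetrix mouse arrays, per the labels' protocols. The authors deposited log2 signals, 1 per probe set, made with RMA per the submitters' processing notes (version not given in the sources used here). 20664 of 45101 probe sets were listed at 0 on all 8 arrays, for which no step is stated, and were left out. Names came from the platform annotation through gene IDs (34958 probe sets with 1 gene name, 932 with several), updated to the symbols of RefSeq on GRCm38.p6. Promoter windows are RefSeq's.

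Differences were tested with lmFit and eBayes of limma 3.58.1 under R 4.3.3 (two-sided, Benjamini-Hochberg) over 24413 probe sets, or 10720 genes each represented by its brightest probe set. Of the 64 array control sets, 9 with a mouse gene name and values were kept in the probe set fit only. A group mean below 5 was called near background. The procedure was also tested on simulated data, with independent noise for each probe set and no outlying array. That check does not cover the array differences described here. The number of arrays limits the precision. The members and the gene lists were chosen with earlier results of these data known. The naming rule took all members, the 2 genes of smallest p per list, Klf1, Gata1, Msi2 and the 5 genes of most similar profile; other list genes named in the text were chosen after their values were seen. Alternatives were other normalizations, filters, priors, array weights, a replicate block, Xist, and leaving out each array. Same-numbered arrays did not deviate together (correlations of their deviations from the group means 0.13, -0.12, 0.079 and -0.038), so the numbers were not taken as pairs.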

Additional observations from a re-analysis of the deposited data

Results flagged for a closer look

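Among the 38 groups of 4 arrays examined (19 probe sets in controls and in KO), 2 held an array far from the others. Chance gives about 1 in 20 for independent groups. These groups share the same arrays and their genes vary together, so the count cannot be measured against that rate. Both outlying readings came from Msi2 KO 3. On Add2 1451914_a_at it read 7.88, and its gap to the next KO array was 0.90 of the range of the group. On Tspan33 1425157_x_at it read 6.83, with a gap of 0.85 of the range. The other KO readings lay between 6.38 and 6.53 and between 5.62 and 5.80, respectively.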

How the results depend on the processing

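No probe set of the 10 genes passed limma's adjusted threshold under any of the alternatives run, the smallest adjusted p being 0.197 (Icam4, with Xist as a covariate). Over the whole table the probe sets called numbered 1 with repeated quantile normalization, 1 without probe sets below the median level, 1 without those ending in _s_at or _x_at, 2 with an intensity trend and robust prior, 1 with array weights and 0 to 1 on leaving out each array, where the main count was 0. They were sets of Aplp2, Elovl1 and, without Msi2 KO 1, Zg16. Genes called numbered 4 with Xist as a covariate (Fcer1a, Fscn1, Mt1 and Nhsl1) and 0 to 1 on leaving out each array. The genes among the 10 with every KO array above every control, 0 with all arrays, numbered 9 on the high-Xist arrays and 0 to 6 on leaving out each array. The 6 came without Msi2 KO 1 (7.17% of all genes); fewer arrays make full separation easier. With the replicate block 0 probe sets and 0 genes passed, and the smallest adjusted p of the 19 probe sets was 0.456; 3 of the 8 arrays deviated most like the array of their own number.

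Direction turned for Add2 1431076_at to -0.0073 with array weights and -0.066 without Msi2 KO 3. Tfrc 1452661_at turned to -0.11 with array weights, -0.0058 without control 1 and -0.23 without Msi2 KO 3, Tfrc 1422966_a_at and the Tfrc 3' set to -0.13 and -0.18 without Msi2 KO 3, and Add2 1421975_a_at to -0.041 on the low-Xist arrays. On leaving out each array, these probe sets reached at most 0.29 (Add2 1431076_at), 0.32 (1452661_at), 0.62 (1422966_a_at) and 0.47 (the Tfrc 3' set). The cause was not tested. The 2 near-background readings, of Rhag and Add2 1431076_at, are limited by signal.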

Other observations

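Outside the 10 genes, 5 of 9321 genes above background followed the mean of the 9 surface genes most closely across the 8 arrays, each profile being taken relative to its control mean. They were Septin8, a septin of the cytoskeleton (root mean square difference 0.16 on the log2 scale), Spire1, an actin nucleator (0.16), Gfi1b, a repressor required for red cells and platelets and a member of the erythroid list (0.22), the serine protease gene Hpn (0.22) and Myh10, a non-muscle myosin heavy chain (0.22). A flat profile would differ by 0.86. Septin8 read 6.90, 7.99, 7.87 and 7.64 in controls and 7.73, 7.92, 9.54 and 8.39 in KO, and Myh10 read 7.36, 7.81, 7.77 and 7.25 and then 7.96, 8.10, 9.84 and 8.18. In both, Msi2 KO 3 was the highest array by more than 1 log2 unit, so that array weighs most in this likeness.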
